A study of Mus musculus with 11 samples.

Results

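The nuclear-encoded respiratory chain genes were followed across the skin and the small intestine of mice that received imiquimod (IMQ) or vehicle cream on the skin. The members were the protein-coding genes whose symbol begins with Nduf, Uqcr, Cox4 to Cox8 or Atp5, together with *Sdha*, *Sdhb*, *Sdhc*, *Sdhd*, *Cyc1* and *Cycs*. This rule took 97 of the 45777 genes in the table, of which 21949 were protein coding. The members comprised 38 genes of complex I, 8 genes of the Ndufaf family of complex I assembly factors, 4 of complex II, 9 of complex III, 1 electron carrier, 20 of complex IV and 17 of complex V. RNA was sequenced from 3 control and 3 IMQ libraries of skin and from 3 control and 2 IMQ libraries of small intestine. All mice were BALB/c, female or male, and 8 to 10 weeks old at treatment. For 5 to 8 days, IMQ mice received each day 62.5 mg of a cream with 5% IMQ (Aldara) on the right ear and on the back after shaving, and control mice received Vaseline on the same sites. IMQ, an agonist of Toll-like receptor 7, is used to produce a psoriasis-like dermatitis in mice, and the cream was put on the skin only. Neither the sex of each mouse nor whether the skin and intestine libraries shared mice was given, so the p-values below measure the spread between these libraries.

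The respiratory chain sits in the inner mitochondrial membrane. Complex I (NADH dehydrogenase) and complex II (succinate dehydrogenase) feed electrons through ubiquinone to complex III (cytochrome bc1), cytochrome c carries them to complex IV (cytochrome c oxidase), and the proton gradient made on the way drives complex V (ATP synthase). Most subunits are encoded in the nucleus and are assembled with a small core encoded by mitochondrial DNA. Absorptive cells of the small intestine depend on this machinery for transport, keratinocytes rely largely on glycolysis, and striated muscle uses its own isoforms of several complex IV subunits.

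The libraries held 44995414 to 58526384 counts assigned to genes, of which the members made up 0.934% to 1.23% in the skin libraries and 1.57% to 1.97% in those of intestine. Of the 97 members, 94 had a count in all 11 libraries. Pairs of libraries of the same group differed beyond sampling noise in all 10 pairs, with a chi-square per degree of freedom of 36.9 to 251. Skin control 2 stood apart: its summed level of 12 enterocyte markers was 292 FPKM, against 21.4 to 54.1 FPKM in the other skin libraries, and its summed level of 16 hair follicle markers was 7.74 FPKM, against 694 and 1121 FPKM in the other control skins and 4.89 to 5.83 FPKM in IMQ skin. FPKM, a level scaled to transcript length and to the mapped reads of the library, is used here to compare levels between genes. Changes are given as log2 fold changes from edgeR's quasi-likelihood test on the counts of all genes, and a gene was called when its adjusted p was under 0.05. The standard error (SE) beside them is not given by edgeR. It was taken as the size of the log2 fold change divided by the square root of the test's F statistic.

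The promoters of members that carried the main differences are shown because the members are transcribed from separate sites, on 19 chromosomes, and short motifs are known from such promoters. Each sequence is taken from RefSeq on GRCm38.p6, is written 5′ to 3′ on the strand of the gene and runs from 250 bases before the transcript start to 50 bases after it. Capitals mark matches, on either strand, to the motifs named after the sequences. *Cox6a1* is the isoform of a complex IV subunit found in most tissues (chr5:115348909-115349208, minus strand), and *Sdhd* encodes a membrane anchor of complex II (chr9:50603800-50604099, minus strand). *Cox7a1* (chr7:30183921-30184220, plus strand) and *Cox8b* (chr7:140900397-140900696, minus strand) are isoforms of complex IV known from muscle. *Ndufa4* (chr6:11907401-11907700, minus strand) was named as a complex I gene and encodes a protein now assigned to complex IV.
Cox6a1: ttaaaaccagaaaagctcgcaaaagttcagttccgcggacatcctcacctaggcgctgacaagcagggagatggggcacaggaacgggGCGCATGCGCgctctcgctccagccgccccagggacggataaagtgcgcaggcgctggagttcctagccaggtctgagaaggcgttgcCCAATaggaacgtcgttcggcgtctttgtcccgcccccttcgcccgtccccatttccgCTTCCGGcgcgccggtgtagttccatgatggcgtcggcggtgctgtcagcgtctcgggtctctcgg
Sdhd: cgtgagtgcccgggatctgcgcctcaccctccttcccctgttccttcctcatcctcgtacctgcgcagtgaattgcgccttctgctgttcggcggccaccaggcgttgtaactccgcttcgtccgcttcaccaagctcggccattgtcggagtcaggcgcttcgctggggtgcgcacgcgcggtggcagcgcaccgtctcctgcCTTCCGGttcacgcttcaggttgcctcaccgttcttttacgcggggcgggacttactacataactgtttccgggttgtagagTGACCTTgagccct
Cox7a1: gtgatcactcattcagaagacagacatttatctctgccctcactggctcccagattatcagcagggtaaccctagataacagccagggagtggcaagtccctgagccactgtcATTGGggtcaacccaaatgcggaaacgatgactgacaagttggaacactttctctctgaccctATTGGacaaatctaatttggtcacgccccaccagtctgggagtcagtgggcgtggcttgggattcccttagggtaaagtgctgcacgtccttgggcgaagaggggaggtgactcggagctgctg
Cox8b: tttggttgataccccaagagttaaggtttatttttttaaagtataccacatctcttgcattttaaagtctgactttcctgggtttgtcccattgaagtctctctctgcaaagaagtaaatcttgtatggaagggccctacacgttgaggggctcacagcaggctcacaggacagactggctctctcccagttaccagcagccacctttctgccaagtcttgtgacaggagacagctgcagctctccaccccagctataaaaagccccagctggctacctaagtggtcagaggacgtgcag
Ndufa4: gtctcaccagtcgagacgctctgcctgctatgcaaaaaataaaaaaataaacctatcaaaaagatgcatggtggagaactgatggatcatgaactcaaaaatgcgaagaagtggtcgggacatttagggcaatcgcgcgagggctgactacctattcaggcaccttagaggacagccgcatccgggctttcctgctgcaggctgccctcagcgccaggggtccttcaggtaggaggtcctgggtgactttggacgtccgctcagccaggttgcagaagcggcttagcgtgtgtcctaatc

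The motifs searched were GCGCATGC for NRF1, CCGGAAG for GABPA and other ETS factors, AAGATGGC for YY1, AAGGTCA for estrogen-related receptors and CCAAT for NFY. NRF1 and GABPA are known activators of respiratory chain genes. Promoter windows were found for 78 of the 97 members, in 83 windows, and for the other 19, which include *Cox6a2*, *Cox4i2*, *Ndufa4l2* and *Cyc1*, none is shown. An NRF1 match lay in 13 of the 83 windows (15.7%), against 2.71% of all 32851 windows of the same length. An ETS match lay in 19 (22.9%, against 8.86% of all), a YY1 match in 11 (13.3%, against 2.75%), an estrogen-related receptor match in 8 (9.64%, against 4.72%) and an NFY match in 36 (43.4%, against 37.4%). The median GC content was 58.3% in the member windows and 52.7% in all windows. In the *Cox6a1* window the NRF1 match began at -162 relative to the start and read as the motif on both strands in overlap, the NFY match began at -74 and the ETS match at -16. The *Sdhd* window had an ETS match at -46 and an estrogen-related receptor match at 36, and the *Cox7a1* window had only NFY matches, at -137 and -74. None of the 5 motifs was in the *Cox8b* and *Ndufa4* windows, which says only that these letters are not there.

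Members were among the more abundant mRNAs of both tissues. The mean level was at least 100 FPKM for 35 members in control skin and for 50 in control small intestine, and the median of the members' mean levels was 80.4 FPKM in control skin, 78.7 in IMQ skin, 113 in control intestine and 106 in IMQ intestine. The highest member in all 4 groups was *Atp5b*, the catalytic beta subunit of ATP synthase, at 540.1, 469 and 548 FPKM in control skin and 1117, 948 and 1011 FPKM in control small intestine. Ndufaf assembly factors were much lower: *Ndufaf4* lay at 5.27, 4.32 and 5.81 FPKM in control skin and 7.95, 7.27 and 7.06 in control intestine. *Cox7b2* and *Cox8c*, known from testis, were at or near 0, with *Cox7b2* listed at 0 in all 11 libraries and *Cox8c* at 0 in all but 1.

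**Figure D1:**
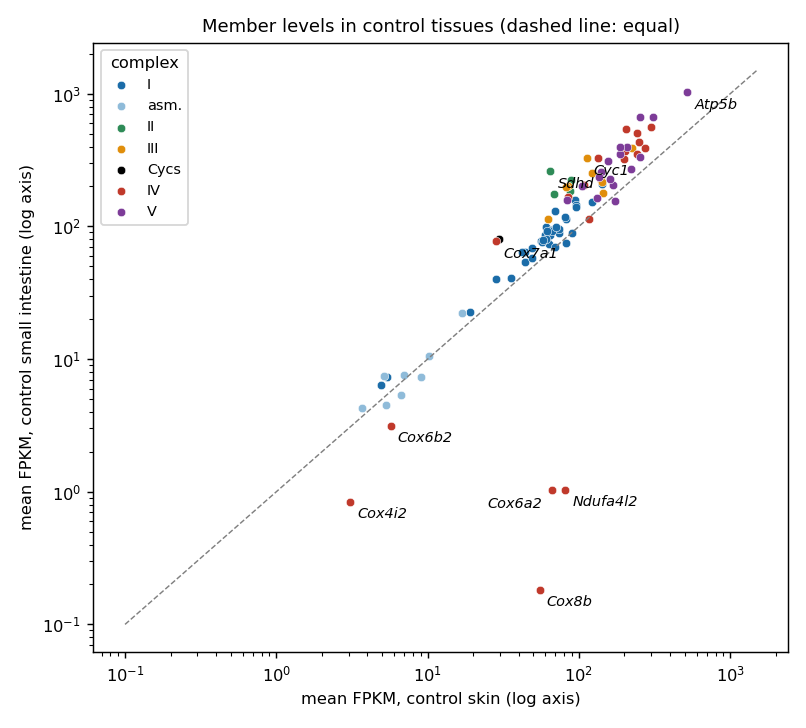
Mean FPKM of each member in control skin (horizontal, log axis) against control small intestine (vertical, log axis), n = 3 libraries each, coloured by complex, for the 95 members with a mean above 0.02 FPKM in both. Most points lie above the dashed line of equal levels, and *Cox6a2*, *Ndufa4l2* and *Cox8b* lie far below it.

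The comparison of the control tissues asked how the chain differs between skin and small intestine before IMQ. Of 94 members tested, 85 were higher in control small intestine, 3 were lower and 6 were not called, whereas 26.2% of all genes tested were higher and 25.7% lower. The median log2 fold change of the members was 0.98 (1.98-fold), against -0.00 over all genes. In bulk tissue, fewer cells of a type and less RNA per cell cannot be told apart, and this holds for every comparison below. The size of the difference moved with the scaling: on log2(FPKM + 0.01) the median of all genes shifted to -0.45 and that of the members to 0.53, with 61 members higher, and relative to all genes the members' median lay between 0.75 and 1.10 over the 9 other settings. On the FPKM scale 7 members changed sign, among them *Cox7a2l* (0.39 in counts, -0.06 on FPKM) and *Ndufb11* (0.45 and -0.01), which were called higher in counts and not called on FPKM.

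Complex II showed the largest median. All 4 of its genes were higher in intestine, with a median log2 fold change of 1.80. *Sdhd*, the anchor whose promoter is printed above, measured 63.9, 57.8 and 72.6 FPKM in the 3 control skins and 285, 234 and 260.0 FPKM in the 3 control intestines. The groups were far apart, and its log2 fold change of 2.47 (SE 0.16, adjusted p = 1.92e-05, edgeR) was the highest of all members. *Sdha*, the flavoprotein that oxidizes succinate, measured 68.4, 71.4 and 67.0 FPKM in control skin and 195, 156 and 174 in control intestine, a log2 fold change of 1.80 (SE 0.19). The iron-sulfur subunit *Sdhb* was close to it at 1.79 (SE 0.17), and *Sdhc*, the other anchor, stood at 1.53 (SE 0.16).

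Complex III and cytochrome c followed. All 9 complex III genes were higher in intestine, with a median of 1.31. *Cyc1*, cytochrome c1, measured 114, 100.04 and 124 FPKM in control skin and 309, 285 and 383 in control intestine, a log2 fold change of 2.04 (SE 0.19, adjusted p = 9.36e-05, edgeR). The Rieske protein *Uqcrfs1* stood at 1.73 (SE 0.16) and the core protein *Uqcrc1* at 1.49 (SE 0.19). *Cycs*, the somatic cytochrome c, measured 29.3, 25.5 and 33.5 FPKM in control skin and 84.8, 61.0 and 96.9 in control intestine, a log2 fold change of 1.93 (SE 0.22), and no skin library reached the lowest intestine library.

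Complex V lay close to complex III, and complex I below both. Complex V had 16 of 17 genes higher (median 1.33), with *Atp5a1* and *Atp5b*, the alpha and beta subunits of its catalytic head, at 1.57 (SE 0.22) and 1.44 (SE 0.23). The 3 genes for its c ring subunit, whose mature proteins are alike, did not move together: *Atp5g3* stood at 1.87 (SE 0.17), while *Atp5g2* at 0.31 (SE 0.14, adjusted p = 0.0998, edgeR) was not called. As a share of the FPKM of *Atp5g1* and *Atp5g2*, *Atp5g2* made up 67.7% ± 0.55 (SD, n = 3) in control skin and 49.6% ± 3.20 (SD, n = 3) in control intestine. Complex I had 37 of 38 genes higher, with a median of 0.91, and its catalytic subunits *Ndufs1* (1.08, SE 0.14) and *Ndufv1* (0.96, SE 0.15) were near that median. The lowest complex I value was *Ndufa7* at 0.31 (SE 0.15), the gene not called. Of the 8 Ndufaf assembly factors 5 were higher, with a median of 0.54, and *Ndufaf7*, *Ndufaf2* and *Ndufaf5* were at 0.17 to 0.18 without a call and below 0 on FPKM, as were *Ndufa7* and *Atp5g2*.

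Complex IV was split by isoform: 13 of its 17 tested genes were higher in intestine and 3 were lower. Subunits found in most tissues were higher, with *Cox6a1* at 211, 172 and 232 FPKM in control skin and 612, 473 and 538 in control intestine (log2 fold change 1.87, SE 0.18), *Cox5a* at 1.76 (SE 0.17) and *Cox4i1* at 1.37 (SE 0.16). The muscle and heart isoform *Cox6a2* went the opposite way, with 51.3, 77.4 and 70.3 FPKM in control skin and 1.11, 0.888 and 1.07 in control intestine. It was 46.6-fold lower in intestine (log2 fold change -5.54, SE 0.27, adjusted p = 6.56e-06, edgeR). *Ndufa4l2*, a hypoxia-induced relative of *Ndufa4*, was 56.7-fold lower (-5.82, SE 0.42), and *Cox4i2*, the isoform known from lung and from hypoxia, was 2.67-fold lower (-1.42, SE 0.36). These 3 genes overlap other counted genes (*Cox6a2* with *Itgad*, *Ndufa4l2* with *Shmt2*, *Cox4i2* with *Bcl2l1*), and the strand setting of the counting was not stated, so reads in the overlaps cannot be told apart.

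The muscle isoforms did not behave alike in the intestine. *Cox8b* resembled *Cox6a2*, with 44.4, 58.0 and 62.4 FPKM in the control skins and 0, 0.340 and 0.205 in the control intestines, 1 of which was at 0, so it was left out of the test. *Cox7a1* instead measured 23.3, 32.0 and 29.9 FPKM in the control skins and 85.8, 67.0 and 78.2 in the control intestines, with a log2 fold change of 1.89 (SE 0.21, adjusted p = 1.93e-04, edgeR). Every intestine library was above every skin library. As a share of the FPKM of each pair of isoforms, *Cox6a2* made up 24.6% ± 5.85 of *Cox6a1* plus *Cox6a2* in control skin and 0.189% ± 0.00889 in control intestine (SD, n = 3 each). *Cox8b* made up 18.6% ± 3.19 and 0.0381% ± 0.0366 of its pair with *Cox8a*, while *Cox7a1* made up 25.2% ± 2.92 and 31.7% ± 1.52 of its pair with *Cox7a2* (SD, n = 3 each).

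Muscle transcripts were present in skin beside these isoforms. The summed level of 18 skeletal muscle markers was 6027, 9073 and 7030 FPKM in control skins 1 to 3, 4591, 4514 and 8777 FPKM in IMQ skins 4 to 6 and 27.2 to 83.6 FPKM in the intestine libraries. In the same order, *Cox6a2* measured 51.3, 77.4 and 70.3 FPKM in control skin and 33.4, 44.6 and 89.4 in IMQ skin, and *Cox8b* measured 44.4, 58.0 and 62.4 and 30.1, 30.6 and 68.4. IMQ skin 6 was the highest IMQ library for both isoforms and for the markers, but in normalized counts it was the highest for 86 of 95 members. The order was not the same throughout: in control skin the markers were highest in library 2 and *Cox8b* in library 3, and *Cox6a2* was higher in IMQ 5 than in IMQ 4 while the markers were not. The IMQ and control values overlapped. The part of muscle in these values was not tested. In the intestine, 9 to 14 of the 18 markers had any count, while *Cox7a1* was at 70.4 and 61.5 FPKM in the IMQ libraries, near its control level.

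**Figure D2:**
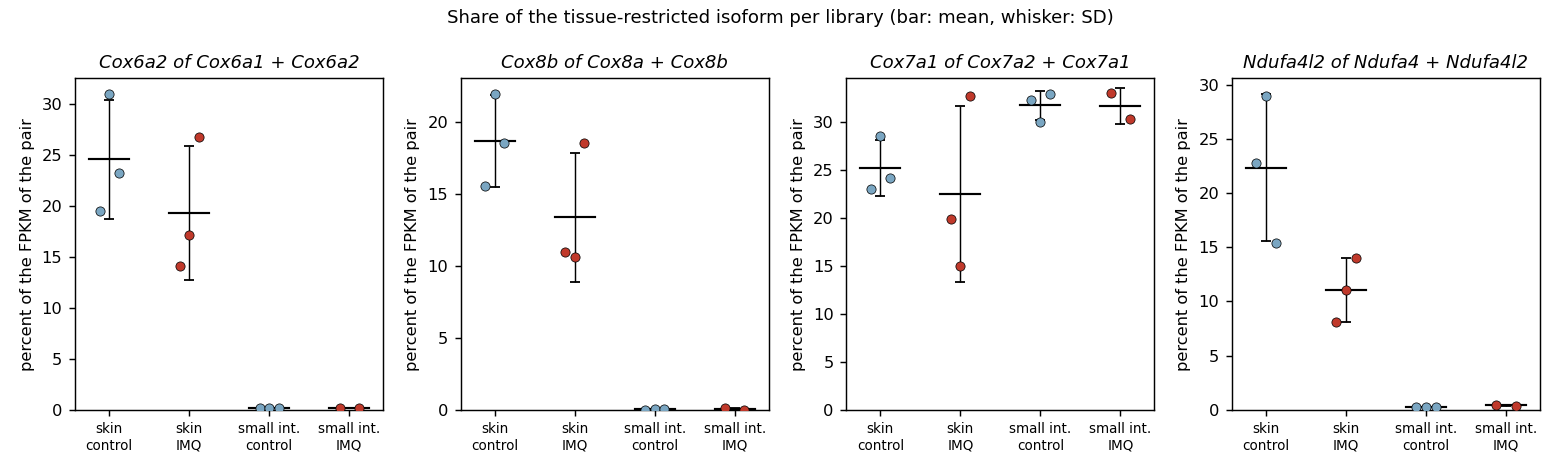
Share of the tissue-restricted isoform in the FPKM of each isoform pair (percent, vertical axis from 0) for each library in the 4 groups, where points are libraries, bars are means and whiskers are SD. *Cox6a2*, *Cox8b* and *Ndufa4l2* are near 0 in small intestine, whereas *Cox7a1* holds 31.7% of its pair in control intestine and 25.2% in control skin.

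The comparison of IMQ with control skin asked how the chain responded at the treated site. *Ndufa4* was the only member called: 1 of 95 members was higher and 0 were lower, against 4.05% and 2.69% of all genes. Its level was 266, 284 and 269.6 FPKM in the control skins and 469, 509 and 494 FPKM in the IMQ skins. All 3 IMQ libraries were far above all 3 controls, and the IMQ libraries differed little among themselves, with a coefficient of variation of 2.99%, the lowest of all members in that group. The log2 fold change was 0.89 (SE 0.11, adjusted p = 0.00913, edgeR), a 1.86-fold increase, and the gene rose from rank 4 to rank 2 among the members by mean FPKM. *Ndufa4* (gene ID 17992, chr6:11900372-11907450, mm10) overlaps no other counted gene. It was called in all 9 other settings (log2 fold change 0.84 to 0.90), but the call was lost without control 1 (0.85, adjusted p = 0.0595, edgeR) and without IMQ 5 (0.87, adjusted p = 0.0575, edgeR). Over all genes, 325 were called without control 1 and 258 without IMQ 5, against 1382 with no library left out. Without skin control 2, the library with intestine transcripts, the change was 0.96 (adjusted p = 0.0075, edgeR).

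The next members by size did not pass the test. *Ndufaf4*, an assembly factor of complex I, measured 5.27, 4.32 and 5.81 FPKM in control skin and 6.58, 7.71 and 7.28 in IMQ skin, with a log2 fold change of 0.54 (SE 0.13, adjusted p = 0.0518, edgeR). Every IMQ value was above every control value. *Sdhd* measured 63.9, 57.8 and 72.6 and 71.3, 92.6 and 98.7 FPKM, with a change of 0.48 (SE 0.14, adjusted p = 0.0852, edgeR). An IMQ value was inside the control range in FPKM, whereas in normalized counts every IMQ value was above every control value. At the other end, *Cox6b2*, an isoform of *Cox6b1* known from testis, measured 5.70, 4.61 and 6.75 FPKM in control skin and 2.71, 3.09 and 2.91 in IMQ skin, with a change of -0.90 (SE 0.22, adjusted p = 0.0575, edgeR). Its groups did not overlap, at levels of a few FPKM, and its share of the *Cox6b1* pair was 2.23% ± 0.40 in control and 0.976% ± 0.109 in IMQ skin (SD, n = 3 each). DESeq2 called *Ndufa4*, *Ndufaf4* and *Sdhd* higher and *Cox6b2* lower, where it called 7.38% of all genes higher and 7.39% lower. Without skin control 2, edgeR called *Ndufa4* and *Ndufaf4* higher (*Ndufaf4* at 0.47) and *Cox6b2* lower (-0.99). That fit called 2521 of 20752 genes in either direction, against 1382 of 20512 with this library kept.

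The rest of the chain stayed within a narrow range in skin. Of the 95 members, 92 had a log2 fold change within 0.5 of 0 (96.8%, against 69.3% of all genes). The median SE was 0.14 for the members and 0.23 over all genes, so the 2 shares are not at equal precision. The median was 0.11, against -0.01 over all genes, with 67 positive and 28 negative values (57 and 38 on FPKM). By complex, the medians were 0.05 for complex I, -0.07 for its Ndufaf factors, -0.05 for complex II, 0.23 for complex III, 0.17 for complex IV and 0.17 for complex V. All 9 complex III values and 16 of 17 complex V values were positive (8 and 14 on FPKM), led by *Cyc1* (0.34, SE 0.13) and by *Atp5mpl*, a small membrane-sector subunit (0.35, SE 0.14), neither of which was called. The core subunits *Ndufs1* (0.06, SE 0.10), *Sdha* (-0.03, SE 0.11), *Cox4i1* (0.09, SE 0.16) and *Atp5b* (0.08, SE 0.15) had values smaller than their SE. So had the core subunits *Ndufv1*, *Sdhb*, *Cox5a* and *Atp5a1*. The other core subunits, *Cyc1*, *Uqcrfs1* (0.29, SE 0.10), *Cycs* (0.27, SE 0.14) and *Uqcrc1* (0.19, SE 0.13), had values above their SE without a call. The members' median rested on single libraries: it was -0.00 without IMQ 6 and 0.18 without IMQ 4.

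The remaining low members in skin were isoforms and a factor whose libraries varied widely. *Ndufa4l2*, at 78.4, 115 and 48.9 FPKM in control and 41.3, 63.4 and 80.7 FPKM in IMQ skin, had a change of -0.37 (SE 0.36) and overlapping groups, and its value was 0.03 without control 2. *Ndufaf3* (-0.34, SE 0.18), *Cox8b* (-0.32, SE 0.33) and *Cox7a1* (-0.24, SE 0.31) were likewise not called. *Cox4i2* stood at 0.49 (SE 0.34) at a level of 2.48 to 5.94 FPKM. As a share of the FPKM of *Ndufa4* and *Ndufa4l2* together, *Ndufa4l2* was 22.3% ± 6.79 in control skin and 11.1% ± 2.97 in IMQ skin (SD, n = 3 each), a ratio in which the rise of *Ndufa4* takes part.

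**Figure D3:**
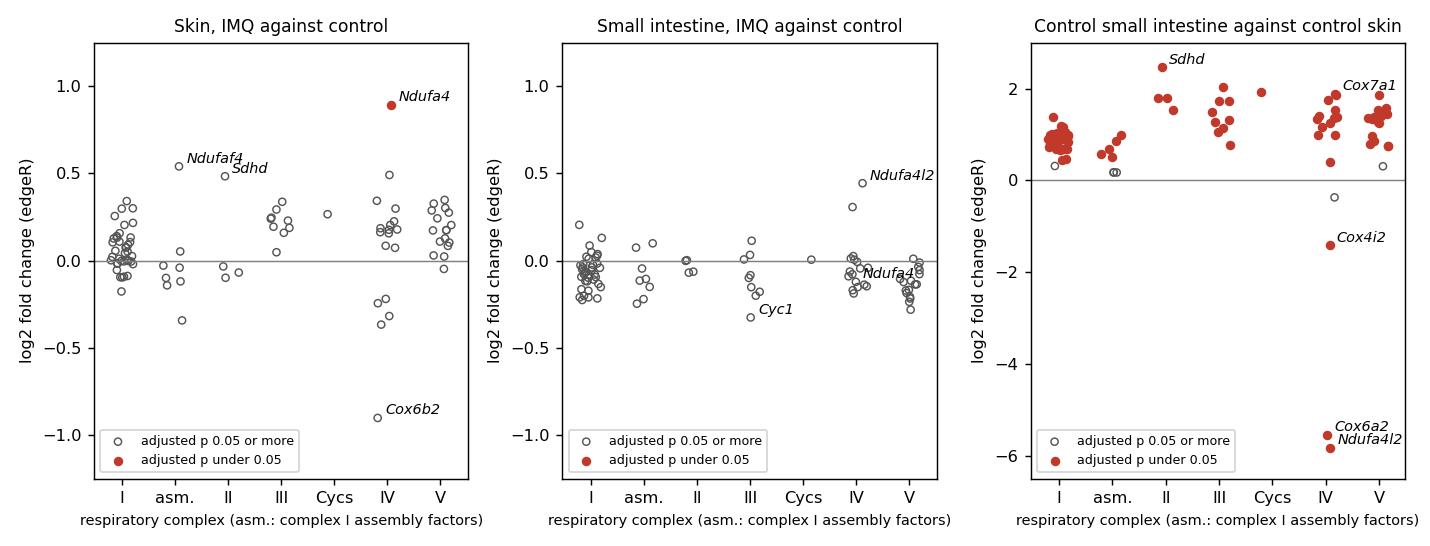
Log2 fold change of each member (vertical axis, wider in the right panel) by complex for IMQ against control skin, IMQ against control small intestine and control small intestine against control skin, where filled points have an adjusted p under 0.05. In the skin panel only *Ndufa4* is filled, at 0.89, in the intestine panel none is, and in the tissue panel 88 points are.

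The comparison of IMQ with control small intestine asked whether the chain changed at a distance from the treated skin. No member was called: edgeR called 0 of 94 members in either direction, against 2.77% of all genes higher and 0.17% lower. No member had an unadjusted p under 0.05, against 12.3% of all genes, and DESeq2 called 0 members, against 6.04% of all genes. All 94 members lay within 0.5 of 0 on the log2 scale, against 79.0% of all genes, with a median SE of 0.17 against 0.23 over all genes. The median was -0.08, against -0.02 over all genes, with 22 positive and 72 negative values (9 and 85 on FPKM), and 16 of 17 complex V values were negative (median -0.14). This median was 0.01 without control 7 and 0.02 without IMQ 10, so its sign rested on those libraries.

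The extreme members of the intestine comparison were small and uncertain. *Cyc1* had the lowest value, with 309, 285 and 383 FPKM in control and 244 and 263 FPKM in IMQ intestine and a log2 fold change of -0.33 (SE 0.21, adjusted p = 0.639, edgeR). *Atp5mpl* (-0.28, SE 0.13), *Ndufaf2* (-0.25, SE 0.21), *Atp5g1* (-0.24, SE 0.17) and *Ndufb4b* (-0.23, SE 0.27) followed, and *Ndufb4b* shares near-identical copies with *Ndufb4* and *Ndufb4c*, between which reads may be split. At the other end were *Ndufa4l2* (0.44, SE 0.30), *Cox6b2* (0.31, SE 0.45), *Ndufa1* (0.21, SE 0.18), *Ndufs5* (0.13, SE 0.18) and *Uqcrc1* (0.11, SE 0.24). *Ndufa4l2* was near the bottom of the members' levels here, at 1.23, 0.890 and 0.979 FPKM in control and 1.45 and 1.33 in IMQ intestine. *Ndufa4* measured 414, 377 and 388 FPKM in control and 350.2 and 352 FPKM in IMQ intestine, with both IMQ libraries below the 3 controls on this scale. Its change in counts was -0.12 (SE 0.14), and there the groups overlapped: IMQ 11 had a normalized count of 10830 and control 8 of 10212.

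A fit of all 11 libraries tested whether the IMQ change differed between the tissues. The change in intestine minus the change in skin was called for 1 of 94 members, *Ndufa4*, which was lower, and for 0 in the other direction, against 0.856% and 1.7% of all genes. The difference for *Ndufa4* was -1.01 on the log2 scale (SE 0.18, adjusted p = 0.0162, edgeR). In FPKM, *Ndufa4* in IMQ skin reached 469 to 509, above all 5 intestine libraries at 350.2 to 414. Control intestine was at 1.44-fold the FPKM of control skin. In counts, control intestine exceeded control skin by a log2 fold change of 0.98 (SE 0.14), and IMQ skin exceeded control skin by 0.89 (SE 0.11). These count values came from separate fits and differed by less than either SE, so they give no order of IMQ skin and control intestine. A direct comparison of IMQ skin with intestine was not tested. The difference was called in all 8 other settings (adjusted p up to 0.0405), but not without skin control 1, skin IMQ 5, SI IMQ 10 or SI IMQ 11, where it stayed between -1.09 and -0.93 (adjusted p = 0.0538 to 0.0936, edgeR). DESeq2 also called *Ndufaf4* and *Atp5mpl* lower, 3 members in all, where it called 2.67% of all genes lower.

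Other members had differences without a call, among them 1 larger in size than that of *Ndufa4*. *Cyc1* stood at -0.66 (SE 0.24), *Cox4i2* at -0.64 (SE 0.53), *Atp5mpl* at -0.63 (SE 0.19) and *Ndufaf4* at -0.58 (SE 0.17). On the positive side, *Cox6b2* stood at 1.21 (SE 0.50, adjusted p = 0.246, edgeR), *Ndufa4l2* at 0.83 (SE 0.53), *Ndufaf3* at 0.42 (SE 0.28), *Ndufs5* at 0.19 (SE 0.24) and *Ndufa13* at 0.19 (SE 0.24). All 17 complex V and all 9 complex III values were negative, and the median of the 94 members was -0.15, against 0.03 over all genes. It ranged from -0.30 to -0.03 when 1 library was left out.

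**Figure D4:**
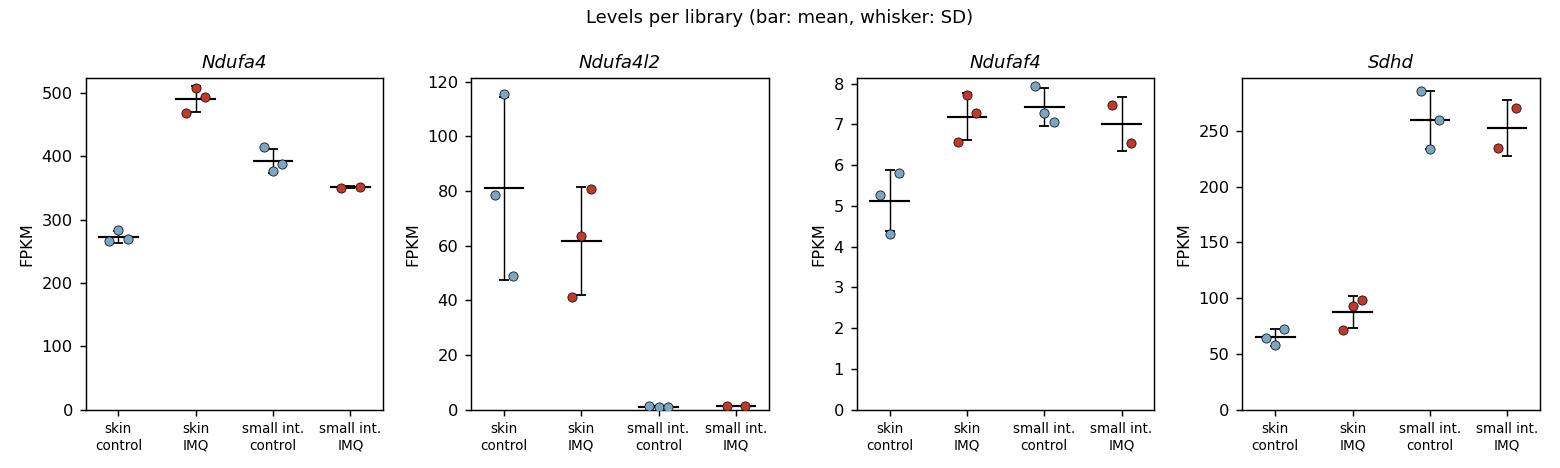
FPKM (vertical axes from 0) of *Ndufa4*, *Ndufa4l2*, *Ndufaf4* and *Sdhd* in each library of the 4 groups, where points are libraries, bars are means and whiskers are SD. The *Ndufa4* points of IMQ skin, at 469 to 509 FPKM, lie above those of every other group, and *Sdhd* separates the tissues instead.

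Apart from treatment, members deviated together between libraries of a group. Skin control 3 held the highest normalized count for 77 of 95 members, against 36.3% of all genes, and IMQ skin 6 for 86 of 95, against 40.4%. IMQ skin 4 was the lowest of its group for 88 of 95. For counts of lowest members, here and below, the share of all genes was not computed. In the intestine, control 7 was the highest for 82 of 94 members (36.9% of all genes) and control 8 the lowest for 86, and IMQ 11 was the higher for 86 of 94 (48.6% of all genes). The members' median deviation from the group mean ran from -0.18 to 0.20 on the log2 scale in IMQ skin and from -0.18 to 0.17 in control intestine, wider than their median change with IMQ in either tissue. *Ndufa4* was an exception in IMQ skin, where it was highest in IMQ 5.

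**Figure D5:**
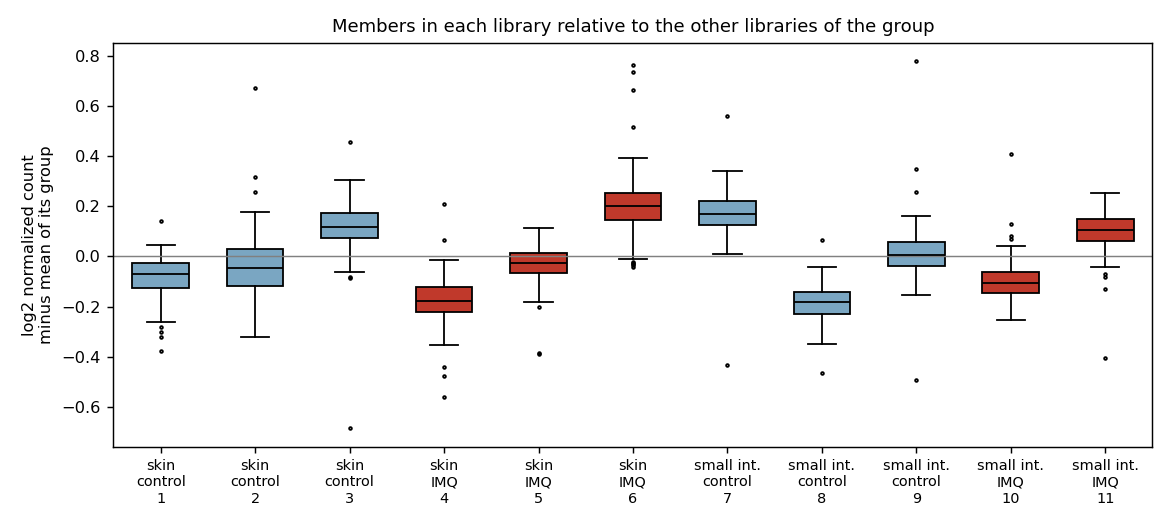
Deviation of each member's log2 normalized count from the mean of its group (vertical axis) in each of the 11 libraries, where boxes show quartiles, black lines medians, whiskers the range without outlying members and dots those members. Whole boxes sit above 0 in skin control 3, IMQ skin 6, intestine control 7 and IMQ intestine 11.

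Related genes outside the rule are read against the shares of all genes called, which were 26.2% higher and 25.7% lower in control intestine, 4.05% higher and 2.69% lower in IMQ skin and 2.77% higher and 0.17% lower in IMQ intestine. The 13 chain genes of mitochondrial DNA had no call with IMQ in skin (median -0.09) or intestine (median -0.17), and 6 were higher in control intestine than in control skin (median 0.91), led by *COX1* at 1.05 without a call (SE 0.53) and *COX3* at 1.04 (SE 0.34). Of 49 further assembly factors, 33 were higher and 2 lower in control intestine (median 0.72), with the copper chaperone *Sco1* at 2.51 and the complex I factor *Acad9* at -2.27, and 0 were called with IMQ in either tissue. Of 20 genes of the citrate cycle and pyruvate entry, 14 were higher and 1 lower in control intestine (median 1.18), led by *Mdh2* at 2.63, *Dlst* at 2.14 and *Ogdh* at 2.09, and 0 were called with IMQ. Of 30 mitochondrial ribosomal proteins, 18 were higher and 0 lower in control intestine (median 0.61), and 0 were called with IMQ.

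Of 19 regulators of mitochondrial biogenesis, 3 rose in IMQ skin, where 4.05% of all genes did: the growth regulator *Myc* (0.75, SE 0.14), the estrogen-related receptor *Esrra* (0.58, SE 0.10) and the coactivator *Ppargc1b* (0.52, SE 0.12), and 0 fell. In intestine 0 were called with IMQ, and the IMQ change of *Myc* differed between the tissues (-1.20, SE 0.23, adjusted p = 0.0214, edgeR). Between control tissues 8 were higher in intestine and 2 lower, against 26.2% and 25.7% of all genes, with *Ppargc1a* at 3.85 (SE 0.37), *Esrrg* at 3.62 (SE 0.33) and the muscle regulator *Perm1* at -7.42 (SE 0.45). Of 22 glycolysis genes, 3 rose in IMQ skin, namely the myeloid hexokinase *Hk3* (1.95, SE 0.28), the glucose transporter *Slc2a1* (1.48, SE 0.26) and *Pgam1* (0.54, SE 0.12), and 0 fell. *Hk3* also rose in IMQ intestine (1.51, SE 0.26), and between control tissues 7 of 21 tested were higher in intestine and 8 lower, near the 26.2% and 25.7% of all genes.

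Cell type markers moved with treatment beside these results. In IMQ skin, 3 of 11 keratinocyte markers rose (*Krt16*, *Krt6a* and *Krt14*), and their sum was 5244 to 10449 FPKM in control and 9646 to 17353 FPKM in IMQ skin, while 3 of 9 tested hair follicle markers and 3 of 10 sebaceous gland markers fell. Leukocyte markers rose in both tissues, with 5 of 9 tested called in skin (sum 349 to 478 FPKM in control, 753 to 1046 in IMQ) and 6 of 10 in intestine (192 to 252 FPKM in control, 460 to 502 in IMQ). In skin, 0 of 18 skeletal muscle markers and 0 of 10 white fat markers were called, 2 of 7 tested brown fat markers fell (*Cidea* and *Dio2*, in a list that also holds the members *Cox7a1* and *Cox8b*), and 1 of 10 smooth muscle markers (*Actg2*) and 1 of 9 crypt and cycling markers (*Lgr5*) fell. In intestine, 0 of 12 enterocyte markers were called, with a sum of 14014 to 20543 FPKM in control and 26161 to 29503 FPKM in IMQ. The part of cell composition in the change of *Ndufa4* was not tested.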

How the data were processed

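RNA of skin and small intestine was extracted, treated with DNase and sequenced as 100-bp reads. The submitters' processing notes name bcl2fastq 2.20.0, Trimmomatic, HISAT2 2.1.0, StringTie 2.1.3b and the build mm10, and the authors deposited 1 table with whole-number counts, FPKM and TPM per gene and library. The strand setting and the handling of reads with several alignments were not given in the sources used here. Deposited TPM values were not used in any test, and deposited FPKM served for levels between genes. Every column was matched to a sample by its name.

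Counts were fitted with edgeR 4.0.16 in R 4.3.3 (quasi-likelihood test, RLE normalization, genes without a 0 in the libraries compared, Benjamini-Hochberg adjustment over all genes, threshold 0.05) for 4 comparisons: IMQ against control in each tissue, control intestine against control skin, and their interaction over 11 libraries. The edgeR fit of each comparison was tested on simulated counts, and the alternatives below were not. Alternatives were DESeq2 1.42.0, limma 3.58.1 (voom, and log2 of FPKM plus 0.01 or 1), other normalizations and filters, 1 fit of all libraries, and each library left out. The named members were, in each comparison, the 5 highest and 5 lowest, and all members called with IMQ. Fixed core subunits were named between control tissues and in IMQ skin, and isoform pairs between control tissues. Some further members were added by choice. Of other lists, those of largest change were named, with the called genes where they were few. The members and the 16 gene lists were chosen with earlier results of these data known. Of 12 rows of other biotypes with matching symbols, mostly pseudogenes, *Ndufb1-ps* reached 2342 counts and was left out. Of the members, 30 overlap another counted gene. Promoter sequences came from RefSeq (GRCm38.p6) and were matched by symbol. Samples of humans and the other assays of the study were not analysed here.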

Additional observations from a re-analysis of the deposited data

Results flagged for a closer look

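The IMQ change of *Ndufa4* is given again because it differed between the tissues in a test of the difference itself: the change in small intestine minus the change in skin was -1.01 on the log2 scale (SE 0.18, adjusted p = 0.0162, edgeR). In skin, all 3 IMQ libraries were above all 3 controls (log2 fold change 0.89, SE 0.11), and in intestine the change was not called (-0.12, SE 0.14). There both IMQ libraries were below the 3 controls in FPKM, but in normalized counts the groups overlapped, with IMQ 11 above control 8. No group held 4 or more libraries, so no test for outlying libraries was made within groups.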

How the results depend on the processing

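The direction and call of *Ndufa4* were the same in all 9 other settings in skin and in all 8 for the difference between tissues, and the counts of 0 in intestine were the same in all 9. Members called higher in IMQ skin numbered 1, but 3 with DESeq2, 2 with edgeR's own count filter, 2 in 1 fit of all libraries and 0 to 2 when a library was left out. Genes called in either direction, of 18108 to 20797 tested, moved as well. They numbered 1382 in the edgeR fit used above, 3030 with DESeq2, 1509 with that filter and 1846 in 1 fit of all libraries. With voom they numbered 1281, on log2(FPKM + 0.01) 1141, and with a library left out 258 to 2521. Members called lower numbered 0, but 1 each with DESeq2, voom, that filter and log2(FPKM + 0.01), and 0 to 1 when a library was left out. Those for the difference between tissues numbered 1, but 3 with DESeq2 and 0 to 1 when a library was left out. Between control tissues 7 members turned sign on FPKM + 0.01 and + 1: *Atp5g2* (-0.15 on both), *Ndufaf7* (-0.30 and -0.25), *Ndufaf2* (-0.26 and -0.24), *Ndufaf5* (-0.23 and -0.19), *Ndufa7* (-0.15 and -0.14) and, called in counts, *Cox7a2l* (-0.060 on both) and *Ndufb11* (-0.0072 and -0.0071), none of them called on FPKM. In the other comparisons up to 15 of 94 members turned sign in a setting, none of them called. With a library left out, only named members, and not all of them, were followed one by one. Among these, signs turned in skin for *Ndufa4l2* (-0.65 to 0.034), *Cox6a2* (-0.70 to 0.032), *Sdha* (-0.083 to 0.034) and *Cox4i1* (-0.039 to 0.18). In intestine they turned for *Cox6b2* (-0.15 to 0.81), *Ndufa1* (-0.033 to 0.42), *Ndufs5* (-0.088 to 0.33) and *Uqcrc1* (-0.15 to 0.34), and in the difference for *Ndufs5* (-0.048 to 0.39). More members than these turned sign, because the median of all members tested did so too. It was -0.0041 in skin without IMQ 6 and 0.019 in intestine without IMQ 10. The cause was not tested. Where a left-out library leaves 1 IMQ intestine library, it is assumed to vary like the other group. With 2 IMQ intestine libraries and a median SE of 0.17, changes of the sizes seen there were not detectable. No paired analysis was possible because the replicate numbers run from 1 to 11 and no groups share any.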

Other observations

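*AA467197*, the mouse form of a gene also known as NMES1 and a paralog of *Ndufa4*, lies outside the rule and was looked up after the values of *Ndufa4* had been seen. Its level was 0.743 to 1.99 FPKM over the 6 skin libraries, 10.8, 7.31 and 13.7 FPKM in control intestine and 12.2 and 27.4 FPKM in IMQ intestine. It was higher in control intestine than in control skin (log2 fold change 3.49, SE 0.47, adjusted p = 5.41e-04, edgeR). It was not called with IMQ in skin (-0.29, SE 0.42) or in intestine (0.95, SE 0.42, adjusted p = 0.429, edgeR), where 1 IMQ library lay inside the control range.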
